A study of Mus musculus with 8 samples.

Results

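The glucocorticoid-responsive genes described here are the glucocorticoid receptor gene *Nr3c1* and 8 genes that the receptor is known to act on: *Fkbp5*, *Tsc22d3*, *Zbtb16*, *Sgk1*, *Map3k6*, *Sult1a1*, *Errfi1* and *Cdkn1a*. They were chosen by gene symbol and make up 9 of the 55291 genes in the count table. All 9 passed the filter on low counts and were among the 19470 genes tested.

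RNA was sequenced from the lumbar spinal cord of 8 male mice on a C57BL/6J background, all carrying the SOD1G93A transgene, a mutant human superoxide dismutase that gives a motor neuron disease modelling ALS. The *Ager*-deleted group held E1776, E5231, E5248 and E5568, which were SOD1G93A Agerfl/fl Cx3cr1Cre/+, with *Ager*, the gene for the receptor RAGE, flanked by loxP sites. The Cre controls, also 4 mice (E5386, E5642, E6578, E6732), were SOD1G93A Ager+/+ Cx3cr1Cre/+. Mice of both genotypes carried a tamoxifen-inducible Cre in 1 copy of *Cx3cr1*, which is expressed in microglia and other myeloid cells, so both lacked 1 working copy of *Cx3cr1*, and both had received 5 tamoxifen injections. The labels place these at 12 weeks of age and give an age of 120 days for every mouse, whereas the study's methods place the tissue at end-stage of the disease, a humane endpoint. Corticosterone was not measured in these files, and the time of day at which tissue was taken is not given in the sources used here.

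The glucocorticoid receptor is a nuclear receptor held in the cytoplasm by a chaperone complex built on Hsp90. When a glucocorticoid binds, corticosterone in the mouse, the receptor moves into the nucleus and binds DNA, mostly as a dimer on a palindrome of AGAACA-like arms, where it raises or lowers the transcription of nearby genes. In the spinal cord, glia, neurons and vessel cells all carry the receptor, and *Fkbp5* and *Tsc22d3* are widely used as readouts of its activity.

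Between 31148047 and 40324897 counts fell on genes per mouse, so a floor of 3 counts lies at 0.0744 to 0.0963 CPM, counts scaled to library size, for counting error alone. *Ager* itself, the targeted gene, was between 0.889 and 1.51 CPM in the *Ager*-deleted mice and between 1.53 and 2.41 CPM in the Cre controls, with no overlap (log2 fold change -0.81, SE 0.22; exact permutation test, p = 0.0286). With edgeR's exact test, the p adjusted over all genes was 0.252; with each mouse left out it was 0.0442 without E5386 and between 0.293 and 1 without any other. Libraries from 3 controls stood apart from the rest. Of 30 skeletal muscle markers, 28 were tested, and their mean log2(CPM + 1) was 5.33 in E5386 and 5.74 in E5642 against 1.63 to 2.09 in the other 6 mice. E5386 also had the highest mean of adipocyte markers (4.75 against 2.74 to 3.48). Its mean of meningeal fibroblast markers was the lowest (3.72 against 4.61 to 5.99). Of 25 liver markers, 9 were tested, and their mean was 5.62 in E6732 against 1.86 to 2.21 in the other 7 mice. Values are therefore also given without these mice.

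None of the 9 genes passed the test between genotypes, and the 8 targets varied by 1.72-fold to 3.65-fold from mouse to mouse. *Fkbp5*, *Tsc22d3*, *Sgk1*, *Map3k6*, *Sult1a1*, *Errfi1* and *Cdkn1a* moved together: the same mice were high in most of them, and the high mice came from both genotypes. *Zbtb16* followed a different order of mice, but came closer to the other targets when the muscle-marked control E5642 was left out. *Nr3c1* stayed within a narrow range with its lowest value in a mouse with high target levels. In bulk tissue, fewer cells that express a gene and less RNA per cell cannot be told apart.

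*Nr3c1*, on chromosome 18, encodes the receptor. Among the *Ager*-deleted mice its level was 84.8 CPM in E1776, 89.1 in E5231, 89.1 in E5248 and 83.4 in E5568. Among the Cre controls it was 93.3 CPM in E5386, 92.4 in E5642, 86.5 in E6578 and 105 in E6732. The genotypes overlapped, although 3 of the 4 controls lay above every *Ager*-deleted mouse. The mean was 86.6 ± 2.96 CPM in the *Ager*-deleted mice and 94.2 ± 7.52 CPM in the controls (SD, n = 4 each), a log2 fold change of -0.12 (SE 0.065, 95% confidence interval -0.27 to 0.02). That difference did not pass the test (edgeR exact test, p = 0.167, adjusted p = 1), and without E6732, the liver-marked control with the highest level, it was -0.066. The highest mouse was 1.25-fold above the lowest, and 70.9% of the tested genes above 1 CPM varied more over the 8 mice.

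*Fkbp5* encodes a co-chaperone that lowers the receptor's affinity for its ligand and is itself induced by the receptor, a negative feedback loop. Its level was 57.0, 51.4, 46.4 and 86.3 CPM in the *Ager*-deleted mice, in the order above, and 34.0, 84.8, 75.4 and 35.4 CPM in the Cre controls. The highest value was in the *Ager*-deleted mouse E5568, followed by the controls E5642 and E6578, and the controls E5386 and E6732 were lowest, so the genotypes overlapped over most of the range. The means, 60.3 ± 17.9 and 57.4 ± 26.5 CPM, differed by a log2 fold change of 0.07 (SE 0.31, interval -0.62 to 0.76; edgeR exact test, p = 0.821). The span was 2.54-fold, and 1.85% of genes varied more. *Fkbp5* (chr17:28399094-28517527, minus strand, GRCm38) lies 6.08 Mb from *Ager* on the same chromosome.

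*Tsc22d3* (chrX:140539528-140600659, minus strand) encodes GILZ, a leucine zipper protein that mediates anti-inflammatory actions of glucocorticoids. The *Ager*-deleted mice had 132, 90.0, 147 and 198 CPM, and the controls 80.2, 191, 152 and 110 CPM. E5568, E5642 and E6578 were again the 3 highest mice and E5386 was the lowest. The log2 fold change was 0.09 (SE 0.28, interval -0.52 to 0.70; edgeR exact test, p = 0.754) and 0.0065 without E6732. The span over mice was 2.47-fold, and 2.18% of genes varied more.

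*Sgk1* (chr10:21882184-21999903, plus strand) encodes a serine/threonine kinase that regulates ion channels and transporters. It was the most abundant of the 9 genes per kilobase of exon, with 336, 192, 292 and 361 CPM for the *Ager*-deleted mice and 148, 414, 373 and 194 CPM for the controls. E5642 was highest and E5386 lowest, both controls, with the *Ager*-deleted mice between them. The log2 fold change was 0.06 (SE 0.31, interval -0.63 to 0.76; edgeR exact test, p = 0.839).

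The sequence before the start site was examined for a palindrome (AGAACA, any 3 bases, then TGTTCT) and for its single arms AGAACA and TGTTCT, which are reverse complements of each other, so that both strands were covered. RefSeq windows of 250 bases before and 50 after a start site (GRCm38.p6) were at hand for 7 of the 9 genes, 16 windows in all. The palindrome was found in 1 of the 16, a window of *Sgk1*, and in 3 of all 32851 windows (0.00913%). A single arm was found in 5 of the 16 windows, from *Sgk1*, *Sult1a1* and *Tsc22d3*, against 6233 (19.0%) of all windows; an arm inside the palindrome counts here too. The 250 bases before the start are shown for the *Sgk1* window with the palindrome (chr10:21993640-21993889, plus strand), for *Tsc22d3* (chrX:140600523-140600772, minus strand), which has 1 arm, and for *Sult1a1* (chr7:126676419-126676668, minus strand), which has 2 arms far apart. Each is written 5′ to 3′ on the gene's strand, with the arms in capitals.
Sgk1: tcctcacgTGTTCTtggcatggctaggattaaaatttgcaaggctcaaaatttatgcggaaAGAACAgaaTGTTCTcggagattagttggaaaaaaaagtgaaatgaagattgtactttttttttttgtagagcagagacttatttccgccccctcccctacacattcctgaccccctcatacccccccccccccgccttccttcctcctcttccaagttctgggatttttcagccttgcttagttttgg
Tsc22d3: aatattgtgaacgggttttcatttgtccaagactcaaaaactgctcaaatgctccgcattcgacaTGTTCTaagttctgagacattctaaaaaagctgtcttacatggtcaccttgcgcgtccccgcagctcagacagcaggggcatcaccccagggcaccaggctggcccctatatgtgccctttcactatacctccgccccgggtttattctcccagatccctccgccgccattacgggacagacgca
Sult1a1: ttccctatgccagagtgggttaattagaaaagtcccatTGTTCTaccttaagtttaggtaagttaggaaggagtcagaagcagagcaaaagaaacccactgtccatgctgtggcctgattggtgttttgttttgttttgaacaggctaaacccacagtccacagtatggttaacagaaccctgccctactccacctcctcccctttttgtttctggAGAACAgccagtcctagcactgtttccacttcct
In the *Sgk1* window the arms of the palindrome begin 189 and 180 bases before the start site. These are matches of letters, and windows of this length leave out the distal sites at which the receptor often binds.

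*Map3k6* (chr4:133240818-133252929, plus strand) encodes a kinase of the stress-activated MAP kinase cascade. The *Ager*-deleted mice had 13.4, 10.4, 10.4 and 15.1 CPM and the controls 6.81, 18.6, 16.8 and 7.34 CPM, the lowest mean level of the 9 genes per kilobase of exon, with at least 249 counts in each mouse. The controls E5642 and E6578 were the highest and the controls E5386 and E6732 the lowest. The means were 12.3 ± 2.36 and 12.4 ± 6.19 CPM, a log2 fold change of -0.01 (SE 0.31, interval -0.70 to 0.69; edgeR exact test, p = 0.980).

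*Sult1a1* (chr7:126672865-126676432, minus strand) encodes a sulfotransferase for phenolic compounds. The *Ager*-deleted mice lay close together at 18.0, 17.2, 16.9 and 21.3 CPM, while the controls spread from 11.6 in E5386 through 19.3 in E6732 and 32.7 in E6578 to 42.2 in E5642. The controls thus reached both below and above all 4 *Ager*-deleted mice, and the span over the 8 mice was 3.65-fold, the widest of the 9 genes. The log2 fold change was -0.53 (SE 0.32, interval -1.23 to 0.18; edgeR exact test, p = 0.105). Single controls moved this value: without E5642 the log2 fold change was -0.21 (adjusted p = 1 in the same test), and without E5386 it was -0.78 (unadjusted p = 0.000592, adjusted p = 0.0945). *Sult1a1* overlaps *Sgf29* on the opposite strand, and the strand setting of the authors' counting is not stated.

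*Errfi1* (chr4:150853919-150868892, plus strand) encodes MIG6, a feedback inhibitor of EGF receptor signalling. *Cdkn1a* (chr17:29090976-29100727, plus strand, 5.50 Mb from *Ager*) encodes p21, a cyclin-dependent kinase inhibitor that p53 also induces. *Errfi1* had 127, 94.9, 144 and 140 CPM with *Ager* deleted and 91.3, 157, 145 and 99.3 CPM in the controls. *Cdkn1a* had 92.0, 84.6, 73.6 and 90.3 CPM with *Ager* deleted and 65.3, 162, 117 and 56.8 CPM in the controls. Both were highest in E5642, and their low ends differed, at E5386 for *Errfi1* and at E6732 for *Cdkn1a*. Their log2 fold changes were 0.04 (SE 0.19, interval -0.37 to 0.45; edgeR exact test, p = 0.846) and -0.23 (SE 0.28, interval -0.86 to 0.39; p = 0.413); that of *Cdkn1a* was -0.032 without E5386 and E5642 and -0.43 without E6732. *Errfi1* spanned 1.72-fold over the mice, the narrowest range of the 8 targets. Both genes, like *Fkbp5*, are overlapped by annotations on the opposite strand.

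*Zbtb16* (chr9:48654297-48836222, minus strand) encodes PLZF, a zinc finger transcriptional repressor. Its level was 29.7, 36.7, 21.0 and 48.1 CPM with *Ager* deleted and 14.4, 15.8, 34.9 and 25.8 CPM in the controls. E5568 was highest, as for *Fkbp5*, but E5642 was next to lowest, where it was among the 3 highest in each of the 7 other targets. The means were 33.9 ± 11.5 and 22.7 ± 9.56 CPM, the largest log2 fold change of the 9 genes (0.58, SE 0.30, interval -0.10 to 1.25), which did not pass the test (edgeR exact test, p = 0.0635; exact permutation test, p = 0.171). The 2 low controls, E5386 and E5642, are those with skeletal muscle markers. Without them the log2 fold change of *Zbtb16* was 0.15, with the muscle list mean as a covariate it was 0.17, and without E5568 alone it was 0.36.

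**Figure D1:**
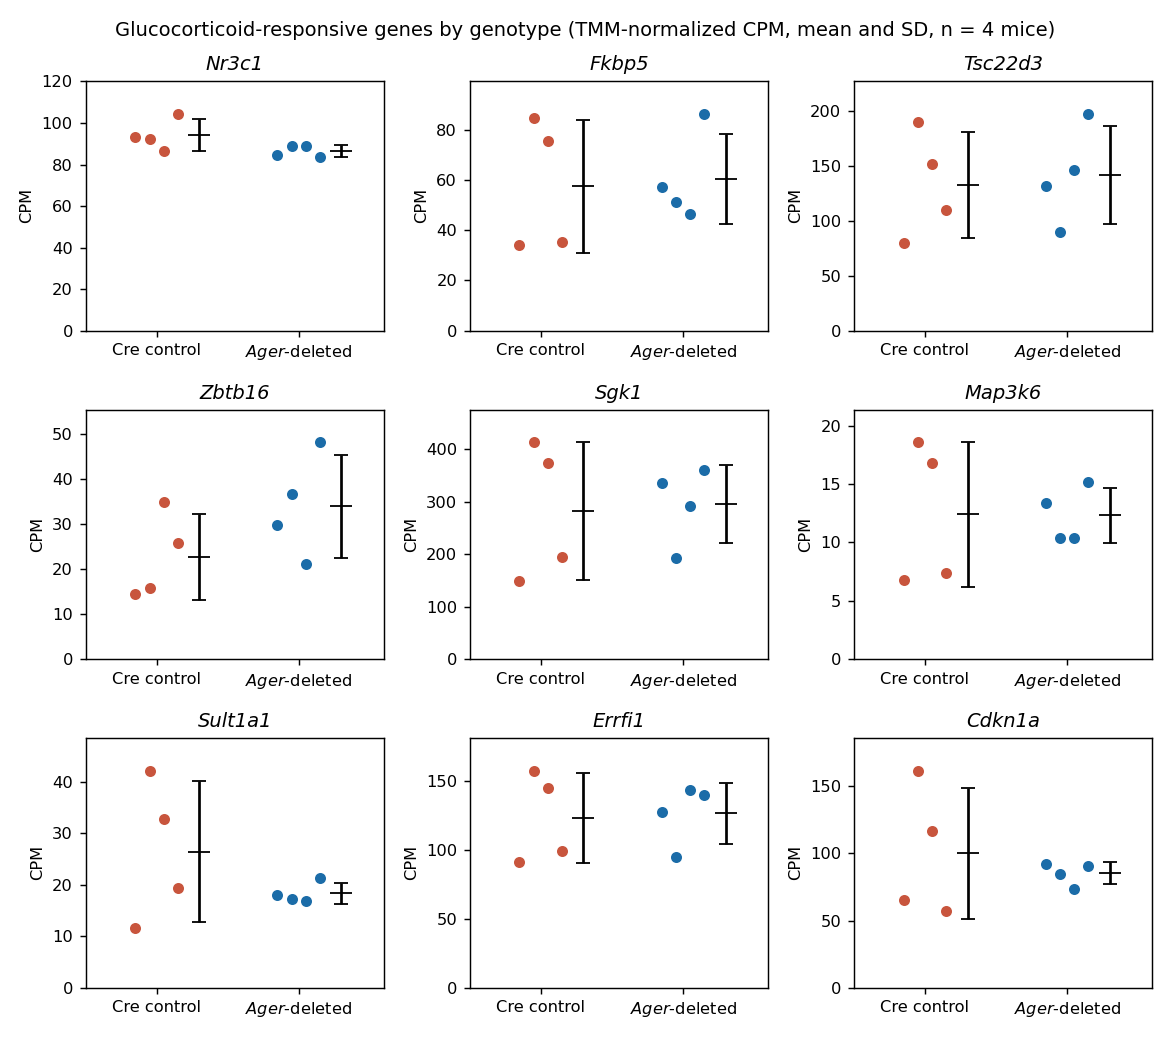
Normalised level (CPM, axis from 0) of the 9 genes in each mouse, with the mean and SD of 4 mice per genotype beside the points. The genotypes overlap for each gene. The controls, which include the muscle-marked E5386 and E5642 and the liver-marked E6732, spread more widely than the *Ager*-deleted mice for every gene but *Zbtb16*. Examples are *Sult1a1* (SD 13.7 against 2.03 CPM) and *Cdkn1a* (SD 48.8 against 8.31 CPM), and for *Zbtb16* the SD was 9.56 against 11.5 CPM.

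The comparison of genotypes asks whether deleting *Ager* in Cx3cr1-expressing cells changed the level of these genes in the cord. In edgeR's exact test 0 of the 9 genes passed an adjusted p of 0.05, which 0.0719% of all tested genes did, and 0 passed it in the quasi-likelihood test, against 0.00514%. At an unadjusted p under 0.05, 0 passed, against 4.26% of all genes (exact test), and by quasi-likelihood also 0, against 6.71%. The genotypes did not overlap for 0 of the 9, against 3.88% of all genes. The log2 fold change was above 0 for 5 and below 0 for 4 of the 9, with a median of 0.04; 52% of all tested genes were above 0, with a median of 0.01. Genotype accounted for 37.8% of the sum of squares over the 8 mice for *Nr3c1* and for 28.4% for *Zbtb16*, and for between 0.985% and 11.6% for the other 7 genes. In 7 of the 8 targets, the 95% confidence interval reached from a fall of at least 0.37 to a rise of at least 0.18 (log2). With 4 mice per genotype, changes between the ends of each interval remain possible, and these ends are not a detection limit. The SE of these 7 log2 fold changes lay between 0.19 (*Errfi1*) and 0.32 (*Sult1a1*).

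Per kilobase of exon, the mean levels ran from 58.9 CPM for *Sgk1* through 34.8 for *Errfi1*, 31.7 for *Tsc22d3*, 26.1 for *Cdkn1a*, 14.9 for *Sult1a1*, 11.8 for *Nr3c1*, 6.21 for *Fkbp5* and 5.36 for *Zbtb16* to 2.68 for *Map3k6*. Neighbours in this order overlapped over the 8 mice except *Nr3c1* and *Fkbp5*.

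The wide ranges of the targets came from the same mice. Counting the 3 highest of the 8 mice for each target, E6578 was among them for 8 of 8 targets, E5642 for 7 and E5568 for 6. E5386 was among the 2 lowest mice for 8 of 8 targets and was the lowest for 7. E6732 was in the lower 3 for 6 of the 7 targets other than *Zbtb16*. For *Nr3c1*, E6732 and E5386 were the highest and E5568 the lowest, but E5642, high in most targets, ranked just after E5386. The pattern cut across genotype, since the high mice were 2 controls and 1 *Ager*-deleted mouse.

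**Figure D2:**
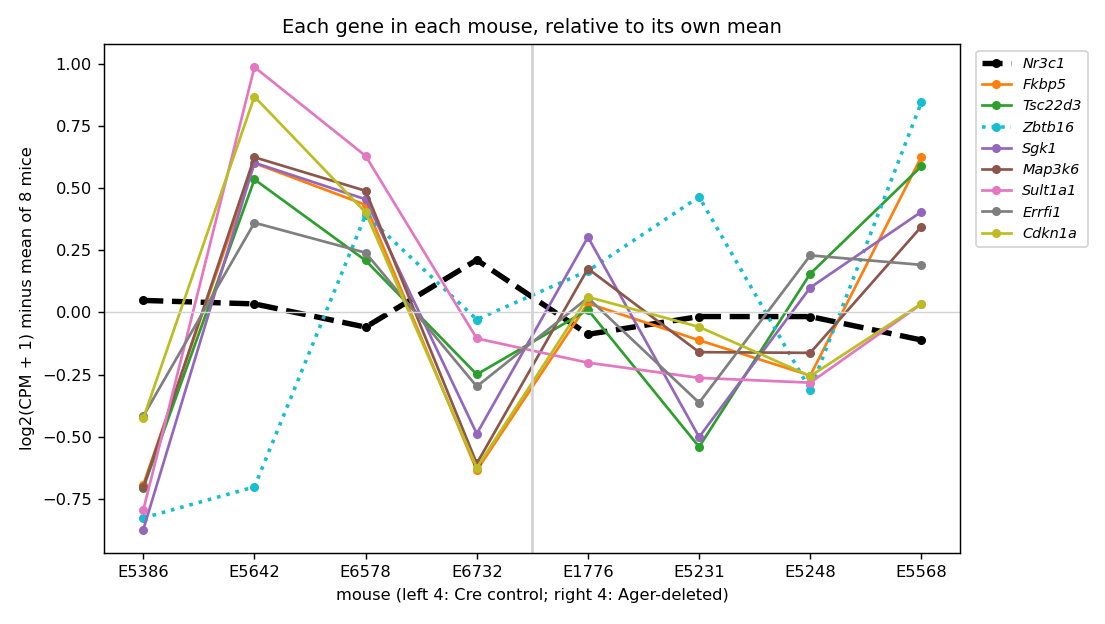
Log2(CPM + 1) of each gene in each mouse minus that gene's mean over the 8 mice, with Cre controls on the left and *Ager*-deleted mice on the right. The lines of the targets other than *Zbtb16* (dotted) are highest in E5642 or E5568 and lowest in E5386 or E6732, and *Nr3c1* (dashed) stays near 0.

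Over the 28 pairs of targets, Pearson's r of log2(CPM + 1) over the 8 mice was positive in 28, with a median of 0.79. Setting *Zbtb16* apart from the other 7 targets was not planned, so the split that follows is description and not a test. Among the 7 targets other than *Zbtb16*, the 21 pairs had r between 0.65 and 0.97, with a median of 0.84. The 7 pairs with *Zbtb16* had r between 0.01 and 0.42, with a median of 0.26. Without E5642 alone, r in these 7 pairs was between 0.42 (*Errfi1*) and 0.84 (*Fkbp5*). For comparison, over all pairs of the 16081 genes above 1 CPM the median r was -0.003 and 4.78% of pairs had r over 0.7. After each gene was centred on its genotype's mean, 28 of the 28 pairs remained positive, with a median of 0.84. Without the muscle-marked E5386 and E5642 the median was 0.64, and 28 pairs were again positive.

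**Figure D3:**
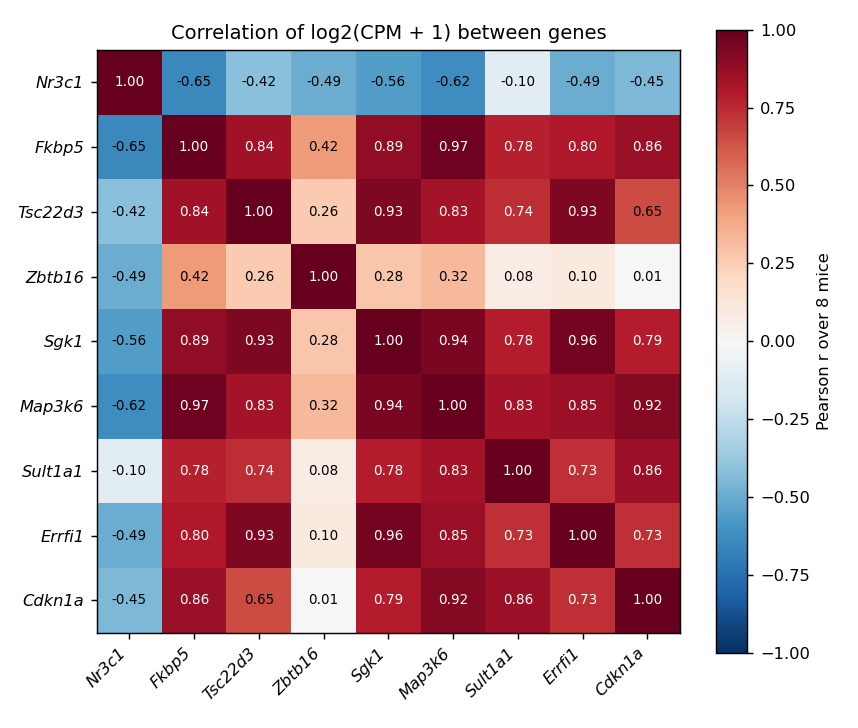
Pearson's r of log2(CPM + 1) over 8 mice for each pair of the 9 genes (colour from -1 to 1, value in each cell). The 7 targets other than *Zbtb16*, a split that was not planned, have r between 0.65 and 0.97 with each other. With all 8 mice, the *Nr3c1* row is negative for all 8 targets.

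*Fkbp5* was taken as the reference because it is the most used readout of the receptor, and its r was computed with each of the 19469 other tested genes. Of the 7 other targets, 6 had a positive r with an unadjusted exact permutation p under 0.05, against 2.24% of all genes. These targets were chosen with earlier results of these data known, so this share is description and not independent support. *Map3k6* was closest (r = 0.97, exact permutation p = 0.000322; rho = 0.93, exact permutation p = 0.00223), and 0.0103% of genes reached an r as high. *Sgk1* followed (r = 0.89, exact permutation p = 0.00600; rho = 0.86, exact permutation p = 0.0107), then *Cdkn1a* (r = 0.86, exact permutation p = 0.00444; rho = 0.83, exact permutation p = 0.0154). *Tsc22d3* had r = 0.84 (exact permutation p = 0.0112; rho = 0.88, exact permutation p = 0.00724). *Errfi1* (r = 0.80, exact permutation p = 0.0281) and *Sult1a1* (r = 0.78, exact permutation p = 0.0218) completed the 6, with rho of 0.69 (exact permutation p = 0.0694) and 0.79 (exact permutation p = 0.0279). *Zbtb16* had r = 0.42 (exact permutation p = 0.290; rho = 0.55, exact permutation p = 0.171).

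After Benjamini-Hochberg adjustment over the 19469 relations, 0 genes passed, and the adjusted p of *Map3k6* was 0.724. With 8 mice the smallest p that the orders of mice allow is 2.48e-05. When E5386 and E5568, the mice farthest from the median of *Fkbp5*, were left out, r was 0.99 for *Map3k6*, 0.98 for *Cdkn1a*, 0.84 for *Sgk1*, 0.83 for *Sult1a1*, 0.72 for *Errfi1* and 0.69 for *Tsc22d3*, whereas *Zbtb16* turned to -0.20. Without E5386 and E5642, r was between 0.58 and 0.95 for the same 6 genes, with an unadjusted exact permutation p under 0.05 left for *Map3k6* (p = 0.00417) and *Cdkn1a* (p = 0.0361), and that of *Zbtb16* was 0.78 (exact permutation p = 0.0667). For *Zbtb16* it was 0.84 when E5642 alone was left out. It was 0.17 without E5386 alone and 0.20 without E5568 alone, so the r of *Zbtb16* with *Fkbp5* depended on single mice. Total counts per mouse had r = -0.40 with *Fkbp5* (exact permutation p = 0.324).

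*Nr3c1* had a negative r with each of the 8 targets, from -0.65 with *Fkbp5* to -0.10 with *Sult1a1*, and 0 of the 8 had an unadjusted exact permutation p under 0.05, against 2.87% of all genes with a negative r and 3.15% with a positive one. For *Fkbp5*, p was 0.0722 in the exact permutation test, with a rho of -0.69 (exact permutation p = 0.0694). Without E5568 and E6732, the mice farthest from the *Nr3c1* median, r with *Fkbp5* was -0.29. Without E6732 alone, the mouse with liver markers, it was -0.49, and without E5386 and E5642 it was -0.84. Leaving out E6732 alone moved r with *Cdkn1a* from -0.45 to -0.0003, and r with *Zbtb16* from -0.49 to -0.87. For *Sult1a1*, r was 0.0092 without E5386 alone and 0.0057 without E6578 alone. The mean of the liver markers had r = 0.85 with *Nr3c1*, E6732 being highest in both, and the part of this in these relations was not tested.

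**Figure D4:**
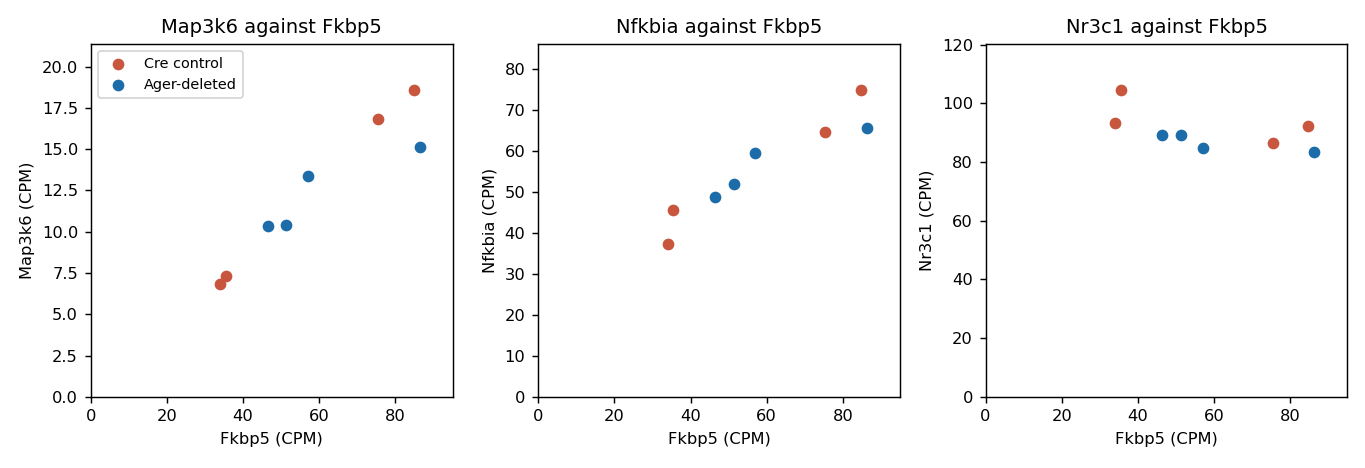
Normalised level (CPM, axes from 0) of *Map3k6*, of *Nfkbia* and of *Nr3c1* against that of *Fkbp5* in the 8 mice, coloured by genotype. *Map3k6* and *Nfkbia* rise with *Fkbp5* across both genotypes (r = 0.97 and 0.96), and for *Nr3c1* r is -0.65, with E5642 high in both genes.

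Marker lists of the cell types in the sample were set beside *Fkbp5* in the same way. The mean of 15 oligodendrocyte markers ran from 8.67 to 8.77 in the *Ager*-deleted mice and from 8.55 to 8.84 in the controls on the log2(CPM + 1) scale, a narrow range, and had r = -0.75 with *Fkbp5* (exact permutation p = 0.0241). The mean of 10 Schwann cell markers ran from 4.09 to 5.08 and from 2.15 to 5.37, lowest in E5386, with r = 0.57 (exact permutation p = 0.125). The other lists had r between -0.06 and 0.45 for astrocytes, microglia, neurons, endothelial cells and meningeal fibroblasts, and -0.04 for skeletal muscle, -0.38 for adipocytes and -0.48 for liver, each with an exact permutation p above 0.05. No marker of these lists was at 0 in every mouse. The part of these differences in the co-variation was not tested.

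A list of 50 other genes known to respond to glucocorticoids was written by hand, with earlier results of these data known. The shares below are therefore description and not independent support. Of the 50 genes, 48 were tested. Of these, 46 had a positive r with *Fkbp5*, and 16 (33.3%) had a positive r with an unadjusted exact permutation p under 0.05, against the 2.24% of all genes given above, with a median r of 0.52. *Nfkbia*, which encodes the inhibitor of NF-kappa-B, was nearest to *Fkbp5* in the list. Its values were 59.4, 51.9, 48.7 and 65.6 CPM with *Ager* deleted and 37.2, 74.8, 64.5 and 45.6 CPM in the controls (r = 0.96, exact permutation p = 7.44e-05; rho = 0.98). Its order of mice was close to that of *Fkbp5*, with E5642, E5568 and E6578 highest and E5386 lowest.

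*Ddit4*, which encodes an inhibitor of mTORC1, had 74.4, 45.7, 71.1 and 99.0 CPM with *Ager* deleted and 44.3, 138, 94.6 and 63.7 CPM in the controls (r = 0.83). *Fam107a* (r = 0.84) and *Klf9*, a Krüppel-like transcription factor (r = 0.79), also had an unadjusted exact p under 0.05. The clock gene *Per1* (r = 0.72, exact permutation p = 0.0530), the metallothioneins *Mt2* (r = 0.64) and *Mt1* (r = 0.38), and *Cebpd* (r = 0.55), *Dusp1* (r = 0.43) and *Pdk4* (r = 0.41) did not. *Bcl2l1* (r = 0.94), *Klf15* (r = 0.94), *Arrdc2* (r = 0.92) and *Hif3a* (r = 0.86), named after their values were seen, were the next nearest to *Fkbp5* after *Nfkbia*. Without E5386 and E5642, 39 of the 48 had a positive r and the median was 0.50.

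**Figure D5:**
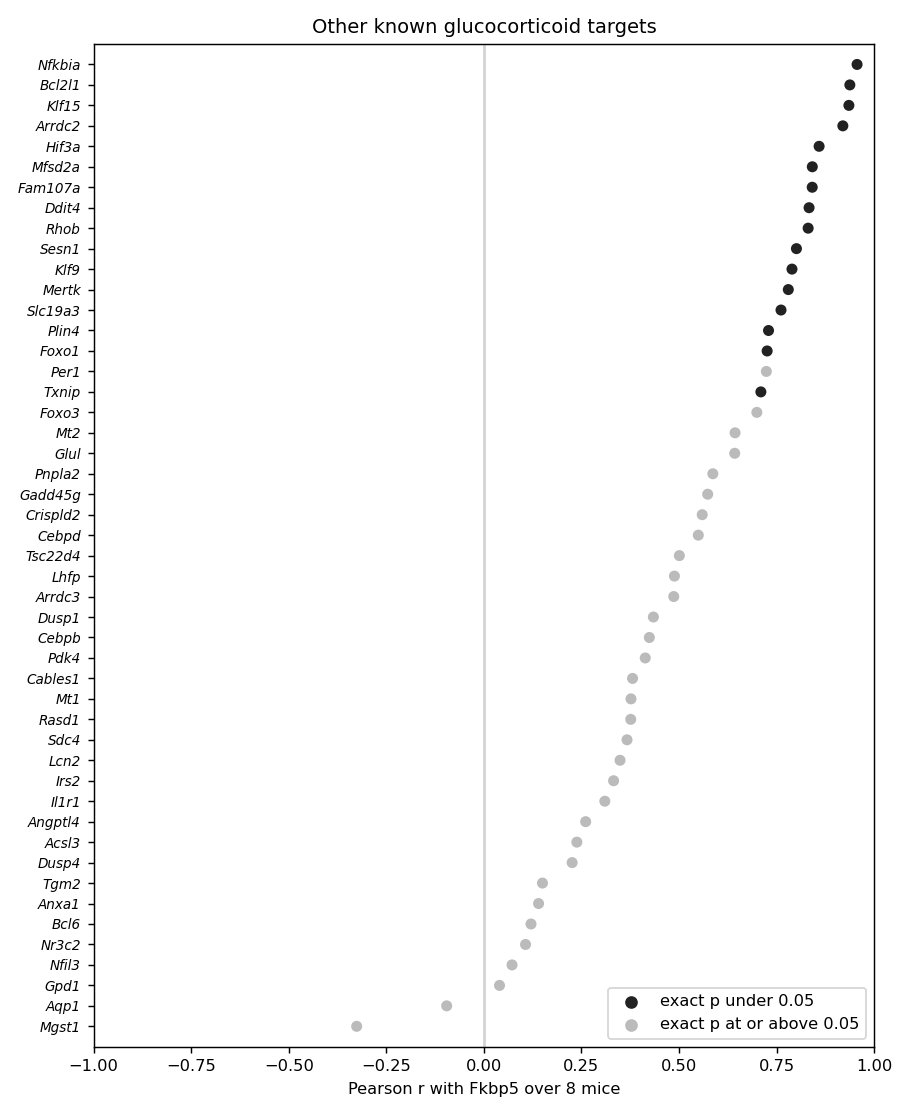
Pearson's r with *Fkbp5* over 8 mice for each of the 48 tested genes of the list of other glucocorticoid targets, dark where the unadjusted exact permutation p was under 0.05 and grey elsewhere. Of the 48 points, 46 lie to the right of 0 and 16 are dark.

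Between genotypes, 0 of these 48 genes were called by edgeR's exact test. At an unadjusted p under 0.05, *Cables1* was higher in the *Ager*-deleted mice (log2 fold change 0.38), against 1.2% of all genes, and 6 genes were lower, against 3.06%. The 6 were the phosphatase gene *Dusp1* (log2 fold change -0.30), the pyruvate dehydrogenase kinase gene *Pdk4* (-0.77), the triglyceride lipase gene *Pnpla2* (-0.43), *Acsl3* (-0.28), *Mgst1* (-0.23) and the water channel gene *Aqp1* (-1.35). *Pdk4* reached 59.5 and 132 CPM in E5386 and E5642, the muscle-marked controls, against 30.0 to 44.2 CPM elsewhere, and without those 2 controls its log2 fold change was 0.12. Without them 0 of the 7 had an unadjusted p under 0.05 in the exact test, with fewer controls left. Values for *Dusp1*, *Aqp1* and *Pnpla2* were then -0.21, -0.56 and -0.21, and those for *Cables1*, *Mgst1* and *Acsl3* were 0.37, -0.25 and -0.24. Without E6732, the liver-marked control, the log2 fold change was -1.01 for *Pdk4*, -0.61 for *Pnpla2*, -0.37 for *Acsl3* and -0.36 for *Dusp1*. It was -1.42 for *Aqp1*, 0.42 for *Cables1* and -0.19 for *Mgst1*.

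Of 24 genes of the receptor's chaperones and coregulators, all tested, 0 passed an adjusted p of 0.05 between genotypes and 0 had an unadjusted exact p under 0.05 for r with *Fkbp5*, with a median r of -0.07. *Dnajb1*, an Hsp40 co-chaperone gene, was the 1 gene at an unadjusted p under 0.05 between genotypes (log2 fold change 0.27, edgeR exact test, p = 0.0110, adjusted p = 0.764), with no overlap, a count near the 4.26% of all genes at such a p and the 3.88% that did not overlap. The log2 fold changes of *Hsp90aa1* and *Hsp90ab1*, the Hsp90 genes, were 0.02 and 0.10, and those of the co-chaperone genes *Ptges3* and *Fkbp4*, which encode p23 and FKBP52, were -0.11 and 0.16. The coactivator genes *Ncoa1* and *Ncoa2* were at -0.001 and 0.04.

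Of 16 genes that make, inactivate or bind steroids, 11 were tested and 0 had an unadjusted p under 0.05 in either comparison. *Hsd11b1*, whose enzyme regenerates active corticosterone, ranged from 10.1 to 18.9 CPM, and the mineralocorticoid receptor gene *Nr3c2* from 31.6 to 38.0 CPM. *Hsd11b2*, whose enzyme inactivates corticosterone, was below the filter. The 18 p53 targets, listed because p53 induces *Cdkn1a*, had a median r of 0.06 with *Fkbp5*, and the 16 clock genes 0.15, each with 0 genes at an unadjusted exact p under 0.05. The 17 immediate early genes had a median of 0.15, with 2 genes at such a p, both with a negative r, as had 2.17% of all genes.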

How the data were processed

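RNA from the lumbar spinal cord of 8 mice was grouped by the genotype in the labels. The authors trimmed reads with Trimmomatic 0.36, aligned them with STAR 2.7.3a to mm10 and counted them with featureCounts (Subread 1.6.3) on GENCODE M25 genes; the counts were deposited without normalization. The authors also deposited log2 values, TMM-normalized in edgeR, which were recomputed to within 4.78e-06. Counts were filtered (filterByExpr, minimum 10), normalized with TMM and tested with edgeR's exact test (edgeR 4.0.16, R 4.3.3; dispersions without a design), with Benjamini-Hochberg adjustment. Standard errors and 95% intervals are from the quasi-likelihood fit. Single genes were also compared on log2(CPM + 1) by an exact permutation test, two-sided, with the 70 assignments of 4 and 4 mice (smallest p 0.0286). Correlations had exact two-sided p over all orders of the 8 mice (scipy 1.17.1). Levels per kilobase used union exons of GENCODE M21 on GRCm38, which also gave positions. The edgeR, DESeq2 and limma-voom tests between genotypes were also run on simulated data.

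The members and gene lists were chosen with earlier results of these data known, and the lists were written by hand. Named are the 9 genes, *Ager*, the 10 nearest genes to *Fkbp5* and 5 to *Nr3c1* (mean of at least 1 CPM), list members with an unadjusted p under 0.05, and genes of the target, receptor and steroid lists picked by name; those of the cell-type lists are given as counts and means. Alternatives were other normalizations, filters, dispersions and tests (DESeq2 1.42.0, limma-voom 3.58.1), a muscle covariate and mice left out. The human and cell culture data were not analysed here. Labels say that each library is from a separate mouse. Apart from the RefSeq start-site windows (GRCm38.p6) searched for the palindrome and its arms, no genome sequence was used.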

Additional observations from a re-analysis of the deposited data

Results flagged for a closer look

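In 47 genes named here, each genotype's 4 mice were checked for a mouse far from the other 3, by the gap to the nearest mouse over the whole range (Dixon's 95% critical value 0.829). Of 94 checks 4 passed it, and chance passes about 1 in 20. The 9 glucocorticoid-responsive genes gave none. For *Cables1* the *Ager*-deleted mouse E5568 was at 19.5 CPM against 13.1 to 13.7 CPM in the other 3 (gap over range 0.905). For *Ada*, among the nearest genes to *Fkbp5*, E5568 was at 7.55 CPM against 4.50 to 4.85 CPM (0.885). For *Ptges3* the *Ager*-deleted mouse E5248 was at 62.1 CPM against 52.1 to 53.3 CPM (0.871). For *Ncoa2* the control E5642 was at 85.2 CPM against 90.8 to 91.4 CPM (0.910).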

How the results depend on the processing

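No paired analysis was possible because the labels number the mice by ID and share no replicate number between genotypes. Of the 9 genes, 0 passed an adjusted p of 0.05 between genotypes in any of the 20 alternatives, and 0 tested genes passed it for r with *Fkbp5* or *Nr3c1*. The lowest value among the 9 genes was 249 counts. For the correlations, leaving out E6732, or E5386, E5642 and E6732 together, was added after seeing the data. The causes of the changes below were not tested.

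Genes called over the whole table (14 in edgeR's exact test) numbered 25 with DESeq2, 8 with at least 1 CPM in 4 mice, 78 with common and tagwise dispersions, 1 each with the quasi-likelihood test, limma-voom and a muscle covariate, 67 without E5386 and E5642, 89 without E6732 and 3 to 98 with each mouse left out. Of the 9 genes, 1 had an unadjusted p under 0.05 in edgeR's exact test with common and tagwise dispersions (*Zbtb16*, p = 0.0301) and 1 without E5386 and E5642 (*Sult1a1*, p = 0.0129), and 0 to 1 with each mouse left out, namely *Zbtb16* without E5248 (p = 0.0128) or E6578 (p = 0.00368) and *Sult1a1* without E5386. The log2 fold change of *Ager* ranged from -0.94 to -0.69 (adjusted p = 0.0442 without E5386).

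With each mouse left out, the log2 fold change changed sign for 6 targets, ranging from -0.15 to 0.31 for *Fkbp5*, -0.12 to 0.30 for *Tsc22d3*, -0.15 to 0.30 for *Sgk1*, -0.22 to 0.25 for *Map3k6*, -0.088 to 0.17 for *Errfi1* and -0.43 to 0.091 for *Cdkn1a*. Without E6732 it was -0.10 for *Fkbp5*, -0.079 for *Sgk1* and -0.053 for *Errfi1*. For *Map3k6* it was 0.028 with library size only, 0.17 with limma-voom, 0.039 with the muscle covariate and 0.024 without E5386 and E5642.

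The number of the 9 genes with an unadjusted exact permutation p under 0.05 for r with *Fkbp5* (6) was 3 without E5386 and E5642 (*Map3k6*, *Cdkn1a* and, with a negative r, *Nr3c1*), 3 without the 2 mice farthest from the median, 0 without E5386, E5642 and E6732 (5 mice) and 4 to 6 with each mouse left out. For *Nr3c1* (0) it was 3 with library size only, 3 without E5386 and E5642, 1 without E6732 and 0 to 3 with each mouse left out. The r of *Zbtb16* with *Fkbp5* was -0.20 without the 2 farthest mice, and that of *Sult1a1* with *Nr3c1* ranged from -0.28 to 0.0092 with each mouse left out. The median r over the 28 pairs of targets (0.79) was 0.64 without E5386 and E5642, 0.62 without E5386, E5642 and E6732, 0.84 centred within genotype and 0.73 to 0.85 with each mouse left out.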

Other observations

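Over all tested genes with a mean of at least 1 CPM, those nearest to *Fkbp5* over the 8 mice after *Map3k6* (Pearson's r = 0.97) were *Ing1* (0.97), *Ramp2* and *Nfkbia* (0.96 each), *Adm* (0.95), *Rgcc*, *Ada*, *Tusc2*, *Bcl2l1* and *Phactr3* (0.94 each). The adjusted p of these 10 was between 0.724 and 0.883 over 19469 relations in the exact permutation test. *Ramp2* encodes a partner of G protein-coupled receptors and *Adm* the vasoactive peptide adrenomedullin. The genes nearest to *Nr3c1* were *Senp6* and *Gm43328* (0.95 each), *Abcc6* (0.95), *Arl13b* and *C1galt1* (0.94 each), and the smallest adjusted p with *Nr3c1* was 0.483 in the same test.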
